A study of Mus musculus with 2 samples.

Results

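The 10 genes described here encode the muscle nicotinic acetylcholine receptor, the proteins that gather it under the nerve ending, and acetylcholinesterase. They were read in C2C12 cells, a mouse myoblast line that fuses into multinucleated myotubes when serum is lowered. The genes (Chrna1, Chrnb1, Chrnd, Chrng, Chrne, Musk, Lrp4, Dok7, Rapsn and Ache) were taken as a named list, and every probe set that carries 1 of these symbols alone was used. That gave 13 probe sets of the 34945 with a single gene symbol, for 10 of 18193 genes. A probe set is a set of short probes whose signals are combined into 1 value for a stretch of a transcript. One group was the shLrrfip1a cells, which carried a hairpin against Lrrfip1, and the other was the control cells, whose hairpin is spelled shLCUI in the sample labels. Both had grown in 10% fetal bovine serum and were then kept for 5 days in 2% horse serum. Each group was 1 array of total RNA, so the spread between cultures is unknown and no p-value or standard error is given. The labels name no nerve cells and no added agrin in either culture, and do not say how the hairpins were delivered or whether the cells were clones or pools.

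In muscle, the receptor is a pentamer of alpha, beta and delta subunits with either a gamma subunit, in fetal and denervated fibres, or an epsilon subunit, in adult innervated fibres. Agrin from the motor nerve binds the co-receptor LRP4, which activates the kinase MuSK. With the adaptor DOK7 and the scaffold protein rapsyn, MuSK signalling anchors receptors opposite the nerve terminal. Transcription of the subunit genes is known to depend on E-boxes, which are bound by myogenic factors such as MyoD and myogenin. Several synaptic genes, the epsilon subunit gene among them, also use an N-box, which is bound by the ETS factor GABP.

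Promoters are shown for the 3 genes used below to compare the fetal and adult subunits. They are that of Chrna1, whose subunit is in both forms of the receptor, and those of the fetal Chrng and the adult Chrne. Each is the 250 bases before the RefSeq transcript start in build GRCm38.p6, written 5′ to 3′ along the gene. Capitals mark E-boxes (CANNTG) and the N-box (CCGGAA), each searched on both strands.
Chrna1, chr2:73580339-73580588, minus strand: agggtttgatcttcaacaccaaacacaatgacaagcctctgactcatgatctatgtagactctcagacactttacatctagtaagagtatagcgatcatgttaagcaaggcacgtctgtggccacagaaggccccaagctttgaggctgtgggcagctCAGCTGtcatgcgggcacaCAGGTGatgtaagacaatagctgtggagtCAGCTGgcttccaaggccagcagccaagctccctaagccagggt
Chrng, chr1:87205561-87205810, plus strand: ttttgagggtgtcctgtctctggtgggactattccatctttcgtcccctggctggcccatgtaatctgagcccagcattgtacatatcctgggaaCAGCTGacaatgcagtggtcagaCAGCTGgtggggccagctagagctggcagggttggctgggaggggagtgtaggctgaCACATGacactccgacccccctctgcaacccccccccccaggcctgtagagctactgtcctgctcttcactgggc
Chrne, chr11:70619195-70619444, minus strand: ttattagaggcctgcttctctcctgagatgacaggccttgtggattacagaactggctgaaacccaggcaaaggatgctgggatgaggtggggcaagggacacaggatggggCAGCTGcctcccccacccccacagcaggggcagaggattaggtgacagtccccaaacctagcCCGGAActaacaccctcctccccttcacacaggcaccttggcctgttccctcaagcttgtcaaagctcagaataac
The Chrna1 stretch holds 3 E-boxes and the Chrng stretch 3, and in each 2 of them read CAGCTG. The Chrne stretch holds 1 E-box, also CAGCTG, and 1 N-box, which begins 76 bases before the transcript start used here. The RefSeq gene table puts the outer end of Chrne at base 70619213, inside this stretch, so that distance depends on the start taken. Promoter sequences were available for 7 of the 10 genes, and all 7 held an E-box (Dok7 at 1 of its 2 listed starts). So did 66.2% of all 32851 promoter windows of that length. CAGCTG stood in 4 of the 7, those of Chrna1, Chrng, Chrne and Musk, against 13.0% of all windows. The N-box stood in 1 of the 7, against 12.03% of all windows. Every CAGCTG is also counted as an E-box, and a match of letters does not show that a factor binds there. Each window ends at a listed transcript start, which for some genes lies inside the gene as the RefSeq gene table draws it. That table starts Musk at base 58285729 and Dok7 at base 35056571. Most of the Musk window (58285712-58285961), with its CAGCTG, and the Dok7 E-box thus lie within the annotated genes. Chrnd, Rapsn and Lrp4 had no promoter sequence in the sources used here. In the RefSeq gene table Chrnd and Chrng are neighbours on chromosome 1, while Chrnb1 and Chrne lie on chromosome 11 and Chrna1, Rapsn and Lrp4 on chromosome 2.

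The targeted gene had intensities of 375, 292 and 108 on the shLrrfip1a array against 531, 469 and 160 on the control array. All 3 probe sets of Lrrfip1 thus read lower in the shLrrfip1a cells, with a mean log2 difference of -0.55 ± 0.09 (SD, n = 3 probe sets that read the same 2 RNA samples, so not an error between cultures). Differences here and below are on the scale of log2(intensity + 16), shLrrfip1a minus control, and understate the change of dim genes. The brightest Lrrfip1 probe set differed by -0.48. Of the 11438 genes above the median probe set level, 92.5% differed by under 0.5 in either direction. Muscle differentiation markers were bright on both arrays. Embryonic myosin heavy chain Myh3 had an intensity of 1294 on the shLrrfip1a array and 1256 on the control array, and skeletal actin Acta1 had 5220 on the shLrrfip1a array and 5586 on the control array. The muscle creatine kinase gene Ckm had 422 on the shLrrfip1a array and 321 on the control array, the list's largest log2 difference at 0.38 (0.06 on its other probe set), and the titin gene Ttn differed by 0.31. The 8 differentiation markers summed to an intensity of 11719 on the shLrrfip1a array and 12000 on the control array, much of it from Acta1. Of them, 7 lay above the median probe set level of 52.8, 3 higher and 4 lower on the shLrrfip1a array. Their median log2 difference was -0.09, and the lowest was that of the desmin gene Des, at -0.23. Of 6 markers of a motor nerve terminal 1 lay above that level, and their sum was 187 on the shLrrfip1a array and 164 on the control array. Of 2 Schwann cell markers on the array 1 did, with a sum of 113 on the shLrrfip1a array and 115 on the control array. Of 3 markers of undifferentiated or cycling myoblasts 2 lay above that level, and their sum was 854 on the shLrrfip1a array and 1110 on the control array, most of it from Mki67 (749 on the shLrrfip1a array and 881 on the control array). The determination factor gene Myf5 had an intensity of 82.7 on the shLrrfip1a array and 159 on the control array, a log2 difference of -0.83. The satellite cell factor gene Pax7 had 22.6 on the shLrrfip1a array and 70.4 on the control array, a difference of -1.16, and its mean lay below the median level. The part of these markers in the results below was not tested.

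None of the 10 synaptic genes differed by as much as 2-fold between the arrays. Of the 8 genes above the median probe set level, 6 were slightly higher on the shLrrfip1a array and 2 slightly lower, with log2 differences between -0.13 and 0.37. When the arrays were scaled to their spike-in controls, which lifted the median of all genes to 0.16, Chrnd and Chrng became positive too and all 8 were higher. Past 2-fold the background was 1.38% of the 11438 genes above that level, and past 1.5-fold, where again none of the 8 lay, it was 4.9%. Lrp4 alone was past 1.2-fold, which 27.5% of genes were. The median of the 8 was 0.08, against 0.00 for all genes, and their median absolute difference was 0.09, against 0.16. Of all genes, 50.7% had a positive difference. Chrne and Ache lay below that level on both arrays and are given by their values alone. In a whole culture, a smaller share of myotubes and less of a transcript per myotube cannot be told apart.

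**Figure D1:**
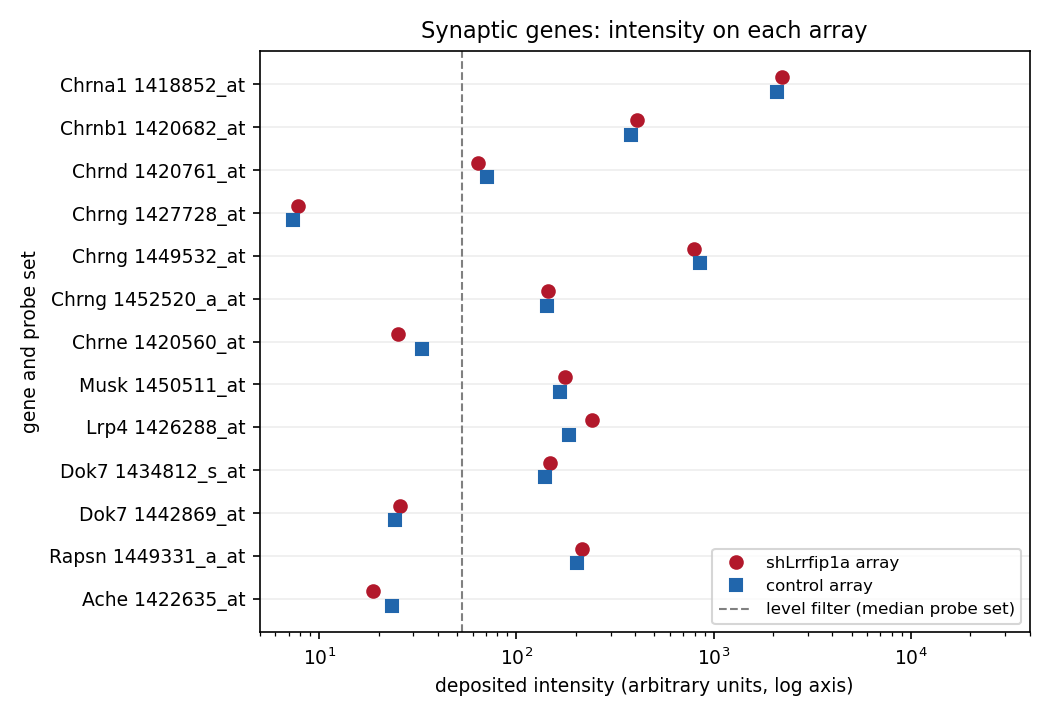
Deposited intensity of each of the 13 probe sets on the shLrrfip1a array (red circles) and the control array (blue squares), in arbitrary units on a log axis; the dashed line is the median probe set level of 52.8. The 2 points of each probe set lie close together, and the widest gaps are those of Chrne, Lrp4 and Ache.

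The 3 subunit genes common to the fetal and adult receptor stayed near their control intensity. Chrna1, which encodes the alpha subunit that carries most of the acetylcholine binding site, had an intensity of 2222 on the shLrrfip1a array and 2105 on the control array, a log2 difference of 0.08. It was among the brightest probe sets on either array, at percentile 98.9 on the shLrrfip1a array and 98.8 on the control array. Chrnb1, the beta subunit gene, had an intensity of 411 on the shLrrfip1a array and 381 on the control array, a difference of 0.10. Chrnd, the delta subunit gene, was lower, at 63.5 on the shLrrfip1a array and 71.0 on the control array, a difference of -0.13. It was the dimmest of the 8 genes above the median level. Of all genes above the median level, 57.9% differed by at least as much as Chrnd, 64.3% by at least as much as Chrnb1 and 72.8% by at least as much as Chrna1. On the authors' scaling the signs did not run one way over the 3 shared subunits, while under spike-in scaling all 3 were positive.

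Chrng, the gene of the fetal gamma subunit, was read by 3 probe sets. The brightest had an intensity of 795 on the shLrrfip1a array and 849 on the control array, a log2 difference of -0.09. The second had 144 on both arrays, a difference of 0.00. The third had 7.86 on the shLrrfip1a array and 7.36 on the control array, a difference of 0.03. The dimmer 2 were designed from the same sequence record. Intensity depends on the probes as well as on the transcript, so the 3 levels cannot be ranked against each other. No probe set of Chrng differed by more than 0.09 in either direction, and their signs were mixed.

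Chrne, the gene of the adult epsilon subunit, was read by 1 probe set and was dim. Its intensity was 25.2 on the shLrrfip1a array and 33.2 on the control array, which is 75.8% of the control intensity and a log2 difference of -0.26. It stood at percentile 25.7 of all probe sets on the shLrrfip1a array and at percentile 36.2 on the control array. No detection calls are given in the sources used here, so it cannot be said whether the transcript was detected. When all probe sets were split by mean level into 10 equal bins, 19.5% of those in the same bin differed by at least as much, and the lowest 5% of the bin lay below -0.29. Because the probe set is dim, the size depended on the constant added before the logarithm, at -0.39 with 1 and -0.12 with 64. The sign was negative in both.

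The fetal and adult subunits were compared through their differences, since the levels of 2 probe sets cannot be set against each other. The difference of Chrng minus that of Chrne was 0.16 on the scale of log2(intensity + 16). With the other Chrng probe sets it was 0.26 and 0.29. Its sign came from the lower Chrne signal (-0.26), which the smaller negative difference of Chrng (-0.09) offset in part. The value was 0.29 with an added constant of 1 and 0.037 with 64, so it rests on a dim probe set. Set against the shared alpha subunit, Chrng minus Chrna1 was -0.17 and Chrne minus Chrna1 was -0.34. With 1 array per group, none of these can be set against a spread between cultures.

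Of the clustering pathway, Lrp4, the agrin receptor, had the largest log2(intensity + 16) difference of the 10 genes; on the unadjusted intensities the dim Chrne differed slightly more. Its intensity was 242 on the shLrrfip1a array and 184 on the control array, which is 131% of the control intensity and a log2 difference of 0.37. Of all genes above the median level, 15.0% differed by at least as much. In its level bin the upper 5% of differences began at 0.43, so Lrp4 lay inside the central 90% of the bin. It was read by 1 probe set, so there was no second reading of the same RNA.

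The other 3 clustering genes were nearly level. Musk, the receptor kinase gene, had an intensity of 177 on the shLrrfip1a array and 166 on the control array, a log2 difference of 0.08. Rapsn, the rapsyn gene, had 214 on the shLrrfip1a array and 203 on the control array, a difference of 0.07. Dok7, the gene of the adaptor that activates MuSK from inside the cell, had 148 on the shLrrfip1a array and 139 on the control array on its brighter probe set, a difference of 0.07. Its other probe set was dim, at 25.6 on the shLrrfip1a array and 24.3 on the control array, a difference of 0.05. The brighter Dok7 probe set carries the suffix that marks probes shared with other transcripts. Both Dok7 probe sets thus read slightly higher, but the dim one lay below the median level, in a bin with a median difference of 0.03.

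Musk, Rapsn, Dok7, Chrna1 and Chrnb1 lay within a narrow band, 5.35% to 7.84% above their control intensity. This band of log2 differences, from 0.07 to 0.10, was picked after the values were seen, and 5.81% of all genes above the median level lay in it. Ache encodes the enzyme that breaks down acetylcholine in the synaptic cleft. Its intensity was 18.7 on the shLrrfip1a array and 23.4 on the control array, a log2 difference of -0.18 on a single dim probe set. In its level bin, 33.4% of probe sets differed by at least as much. All 13 probe sets of the 10 genes lay inside the central 90% of the differences in their own level bin.

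**Figure D2:**
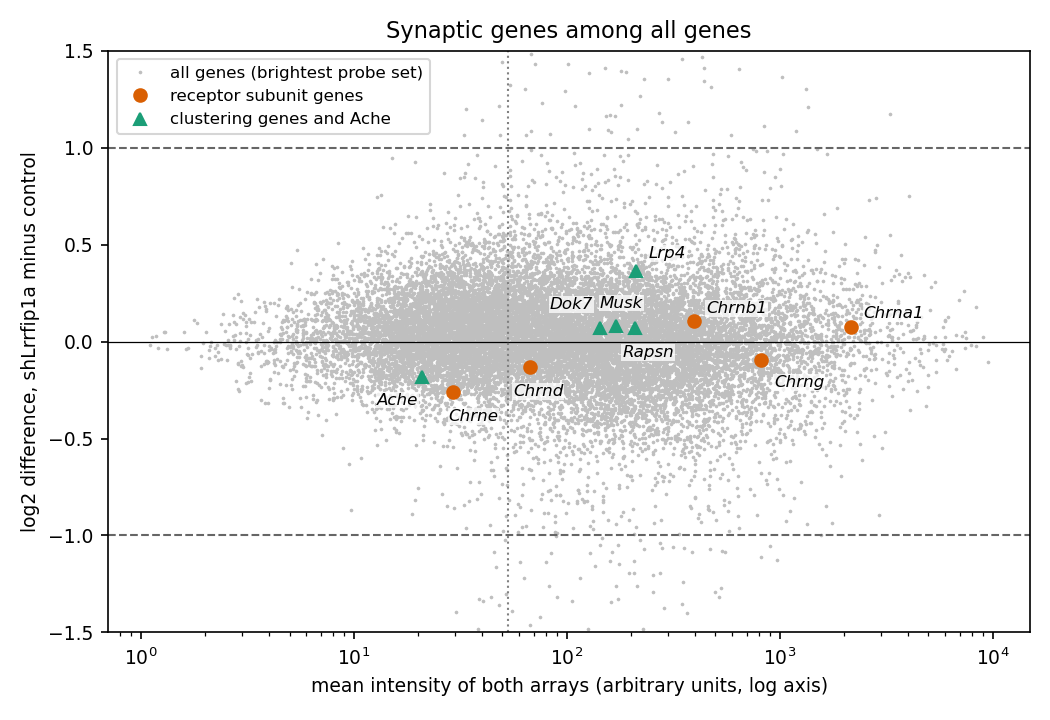
Log2 difference (shLrrfip1a minus control) against the mean intensity of both arrays for all 18193 genes (grey), with the 5 receptor subunit genes (orange circles) and the other 5 synaptic genes (green triangles) labelled; dashed lines mark 2-fold, the dotted line the median probe set level, and 65 genes lie beyond the plotted range of 1.5. The 10 genes lie within the grey cloud, with Lrp4 highest at 0.37 and Chrne lowest at -0.26.

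Other genes of the synapse were read from 7 lists by role, of which 82 genes were on the array under a single symbol and 65 lay above the median level. None of the 65 was past 2-fold, except Nid2 under spike-in scaling. That scaling also turned the medians of the MuSK signalling, scaffold, activity and assembly lists positive, and no other scaling turned a list's median. Past 1.5-fold were 5 genes, 1 higher and 4 lower, which is 7.69% against the background of 4.9%. They were Nid2, Agrn, Erbb3, Dpagt1 and Gadd45a, of which Nid2, Dpagt1 and Gadd45a are named after their values were seen. Their differences lay between -0.76 and 0.89.

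Among 9 ligands and basal lamina genes the median was 0.11, and 7 were higher and 2 lower. Agrn, which encodes agrin and is also made by muscle in a form that clusters receptors weakly, had an intensity of 464 on the shLrrfip1a array and 726 on the control array, a log2 difference of -0.63. Its receptor gene Lrp4 thus differed in the opposite direction. Nid2, a basal lamina nidogen gene, had 1305 on the shLrrfip1a array and 697 on the control array, a difference of 0.89. The neuregulin gene Nrg1 had 108 on the shLrrfip1a array and 99.7 on the control array, a difference of 0.10. Colq, whose collagen tail anchors acetylcholinesterase, was dim, at 19.9 on the shLrrfip1a array and 13.5 on the control array, a difference of 0.28.

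Of 6 genes of neuregulin signalling and ETS factors 5 were lower and 1 was higher, with a median of -0.17. Erbb3, a neuregulin receptor gene, had an intensity of 109 on the shLrrfip1a array and 196 on the control array, a log2 difference of -0.76. Its partner Erbb2 had 102 on the shLrrfip1a array and 122 on the control array, a difference of -0.23. Etv5, an ETS factor gene of subsynaptic nuclei, gave -0.26 on its brightest probe set and 0.14 on another. Gabpa, which encodes the subunit of GABP that binds the N-box, had 397 on the shLrrfip1a array and 432 on the control array, a difference of -0.12.

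The MuSK signalling and clustering list had a median difference of -0.03 over 22 genes, with 9 higher and 13 lower and none past 1.5-fold. The adaptor genes Crk and Crkl, whose products bind phosphorylated DOK7, differed by -0.13 and -0.04 on their brightest probe sets. Over the 4 Crk probe sets above the median level the differences ran from -0.13 to 0.27, so its direction was not settled. Dnaja3, which encodes the MuSK-binding chaperone Tid1, differed by 0.12. The postsynaptic scaffold list had a median of -0.15 over 9 genes, 3 higher and 6 lower. In it the utrophin gene Utrn was level at 696 on the shLrrfip1a array and 716 on the control array. Ncam1, an adhesion molecule gene of developing and denervated muscle, had 801 on the shLrrfip1a array and 1078 on the control array, a log2 difference of -0.42, and -0.44 to 0.00 over its 5 probe sets above the median level.

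Genes tied to electrical activity and denervation had a median of -0.09 over 7 genes, 3 higher and 4 lower. Myog, the gene of the E-box factor myogenin, had an intensity of 2005 on the shLrrfip1a array and 2612 on the control array, a log2 difference of -0.38. Hdac4, a deacetylase gene of the denervation response, had 99.7 on the shLrrfip1a array and 108 on the control array, a difference of -0.09, with -0.44 to 0.01 over its 3 probe sets. Runx1, a factor gene induced by denervation, had 347 on the shLrrfip1a array and 317 on the control array, a difference of 0.12, with -0.25 to 0.12 over 6 probe sets. Gadd45a had 624 on the shLrrfip1a array and 1008 on the control array, a difference of -0.68. On the authors' scaling and their brightest probe sets, Myog, Hdac4 and Gadd45a were thus lower and Runx1 was higher. The probe sets of Hdac4 and of Runx1 were mixed in sign.

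Of 10 nicotinic subunit genes outside the muscle receptor, 3 lay above the median level, with a median difference of 0.34, 2 higher and 1 lower. Chrnb4 was dim, at 38.5 on the shLrrfip1a array and 34.0 on the control array. Of 9 genes for receptor assembly and protein glycosylation, in several of which mutations cause congenital myasthenia, 4 were higher and 5 lower, with a median of -0.02. Gfpt1, the first enzyme of the hexosamine pathway, differed by -0.02. Dpagt1, the first enzyme of N-glycan assembly, had an intensity of 108 on the shLrrfip1a array and 189 on the control array, a log2 difference of -0.73 on its single probe set.

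**Figure D3:**
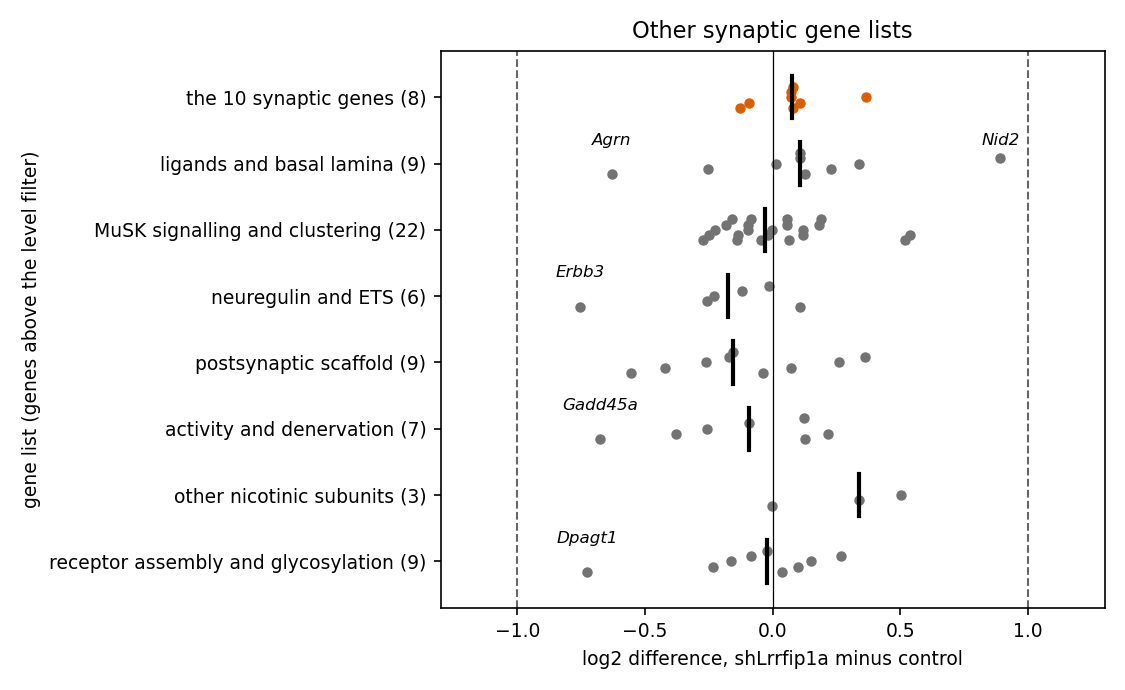
Log2 difference (shLrrfip1a minus control) of each gene above the median probe set level, by list, with the number of genes in brackets; thick bars are list medians, dashed lines mark 2-fold, and genes past 1.5-fold are named. The 8 synaptic genes (orange) span -0.13 to 0.37 and no gene of any list reaches 2-fold; spike-in scaling takes Nid2 past 2-fold and turns 4 list medians (MuSK signalling, scaffold, activity, assembly) positive.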

How the data were processed

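For each array, 6 ug of Trizol-extracted total RNA was turned into biotin-labelled cRNA and read on Affymetrix mouse arrays, per the labels' protocols. The authors deposited a linear intensity for every probe set, from 1 to 9165 (shLrrfip1a) and 9861 (control), with medians of 53.5 and 51.4. How they summarised, background-corrected and scaled the probes is not given in the sources used here. There are no detection calls to use here, and precision is limited by there being 1 array per group. Genes were named through the platform annotation, and all 13 member probe sets matched the mouse gene table of GRCm38.p6 by gene identifier.

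Python 3.11.15 with numpy 2.4.6, pandas 2.3.3 and statsmodels 0.14.6 was used. Differences were taken on log2(intensity + 16) values computed from the deposited intensities. A gene was represented by whichever of its probe sets was brightest on average. Genes whose mean lay above the median probe set level (52.8) were counted, at a fixed size of 2-fold. The steps were tested on simulated data in which every planted change was larger than 2-fold. That test does not bear on differences as small as those of the members, nor on the spread between cultures. The members, lists, named genes and alternatives were chosen with earlier results of these data known. The named genes were all members, Lrrfip1, 17 further synaptic genes, 4 markers and any list gene past 2-fold. The markers Ttn, Des, Myf5 and Mki67 lay outside that choice and were named after their values were seen.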

Additional observations from a re-analysis of the deposited data

How the results depend on the processing

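No paired analysis was possible because there is only 1 array in each group, and for the same reason none can be left out. No member was past 2-fold under any alternative, at 1.5-fold or 3-fold, or without a level filter, and the largest member difference under any of them was 0.53. A value was taken as moved past 0.1 on the log2 scale, and a count past 1.5 times. Genes past 2-fold numbered 158, and 96 with a pseudocount of 64, 105 with a filter at the 75th percentile, 560 at 1.5-fold and 52 at 3-fold. The synaptic lists had 5 genes past 1.5-fold. The Chrng minus Chrne difference was 0.29 and 0.037 with pseudocounts of 1 and 64. Under median centring, quantile normalization and removal of a loess trend no member changed sign.

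Alternatives added after the data were seen were scaling to 42 spike-in controls, 38 of which were lower on the shLrrfip1a array, and a level taken as the mean of log2 values. The spike-in controls were picked by probe set name alone, and kinds of control were not told apart. Scaling to them added 0.16 to every difference. The spike-in scaling gave a member median of 0.23 against 0.16 for all genes, a Lrrfip1 mean of -0.39 and 1 list gene past 2-fold (Nid2). Past 2-fold were 119 higher and 55 lower genes (68.4% higher) in place of 77 and 81 (48.7%). Chrnd and Chrng became positive with it, at 0.03 and 0.07, so all 8 members above the filter were then higher, while Chrne (-0.10) and Ache (-0.03) stayed negative. The mean of log2 values gave 155 genes past 2-fold and moved no member. Chrne and Ache lie below the median level, which limits what their differences show.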
